A study of Mus musculus with 6 samples.

Results

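The Notch receptors, their ligands and the Hes and Hey factors that they switch on were described in mouse breast cancer cells sorted by 2 surface proteins. The genes given by name, Notch1, Notch2, Notch3, Notch4, Jag1, Jag2, Dll1, Hes1, Hey1 and Heyl, were looked up in the array's annotation, and every probe set with 1 of these as its single symbol was used. All 10 genes were found among the 18193 genes measured, on 20 of 45101 probe sets. The sorted cells of main interest were positive for CD24 and CD29 (CD24+CD29+), and were set against cells negative for each of these proteins (CD24-CD29-). Each group had 3 arrays. Both groups were labelled breast cancer stem cells and had been cultured in serum-containing DMEM, and no other treatment was named. The labels give no cell line, strain, age or tumour model, so what else the groups share is unknown here. The series' design text calls the 3 sets independent and biological. Nothing else says whether they were separate cultures or animals, so the p-values cover only how these samples vary, which may be technical in part.

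Notch proteins are receptors on the cell surface that are switched on by ligands on a neighbouring cell. Ligand binding exposes the receptor to an ADAM sheddase and then to gamma-secretase, and the freed intracellular part enters the nucleus, joins the DNA-binding protein Rbpj and turns on genes such as those of the Hes and Hey repressors. In the mouse mammary gland the pathway is known for favouring luminal cell fate, while Dll1 and Jag1 are among the ligands that basal cells make. Notch1 and Notch4 are known sites of activating viral insertion in mouse mammary tumours.

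Expression was read on Affymetrix Mouse430_2 arrays, and all levels below are RMA values on the log2 scale, on which a difference of 1 is a doubling. The arrays of a group were alike, with r of at least 0.9978 across the values of an array, which are not independent replicates. The lower quartile was at 5.20 to 5.27 on CD24+CD29+ arrays and at 5.37 to 5.41 on CD24-CD29- arrays. No detection calls came with the values, so levels near there may be background. The SD of an array's values was 2.10 to 2.14 on CD24+CD29+ arrays and 2.01 to 2.03 on CD24-CD29- arrays, at a mean of 6.93 on each. The deposited values thus differed in distribution by group, with the lower quartile lower in CD24+CD29+ cells. The epithelial genes Epcam and Krt8 were abundant in CD24+CD29+ and CD24-CD29- cells, at 14.11 and 14.13 for Epcam and at 13.50 and 13.67 for Krt8. Of the sort genes, Itgb1, which encodes CD29, averaged 10.94 in CD24+CD29+ cells and 10.06 in CD24-CD29- cells (difference 0.87), and Cd24a lay at 12.98 to 13.02 on CD24+CD29+ arrays and at 12.75 to 12.81 on CD24-CD29- arrays (difference 0.21). RNA of both was thus abundant also in the cells labelled negative for these proteins. Each gene is represented by its probe set with the highest mean, and for the 10 Notch genes the other probe sets are given beside it.

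A gene was called when limma's p, adjusted over all genes by the Benjamini-Hochberg method, was under 0.05. Such calls were common in this comparison, where 70.8% of all genes passed, 34.4% higher and 36.5% lower in CD24+CD29+ cells. All 10 Notch genes passed, 5 higher and 5 lower, and their median difference was 0.00 against -0.04 for all genes. A call alone thus says little here, and the sizes are given with each gene. Of all genes, 17.8% passed with a difference of at least 1.5-fold, and 6 of the 10 Notch genes did, Notch2 only just, at 1.505-fold. The 10 genes were chosen with earlier results of these data known, and 8 of them had a mean of at least 9. The 17.8% covers genes of every level, so this is not a like comparison. Hey1 passed with at least 2-fold, which 4.67% of all genes did. The arrays of the groups did not overlap for any of the 10 genes, as for 73.6% of all genes.

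In outline, CD24+CD29+ cells had higher RNA of Notch1, of all 3 ligands and of Hes1, relative to the other genes on the arrays. On the same terms RNA of Notch2 and Hey1 was lower. Notch4 and Heyl were called lower too, but at dim levels that may be background. Notch3 was lower on its brighter probe set and higher on its dimmer one. Dll1 and Heyl differed little, by 0.24 and -0.24, and no longer passed after quantile normalization or cyclic loess. Hey1 was 2.42-fold lower and Hes1 1.90-fold higher. Directions hold relative to the other genes on the arrays. The added poly-A control RNAs were lower on CD24+CD29+ arrays on all 24 of their probe sets, and when the arrays were scaled to them the median gene stood at 1.19, against -0.04 as deposited. Under it Notch2, Notch3, Notch4 and Heyl turn positive and Hey1 is at -0.06. A common shift leaves the distance of each gene from the median gene as it was. In RNA from a population of cells, fewer cells of a type and less RNA per cell cannot be told apart.

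**Figure D1:**
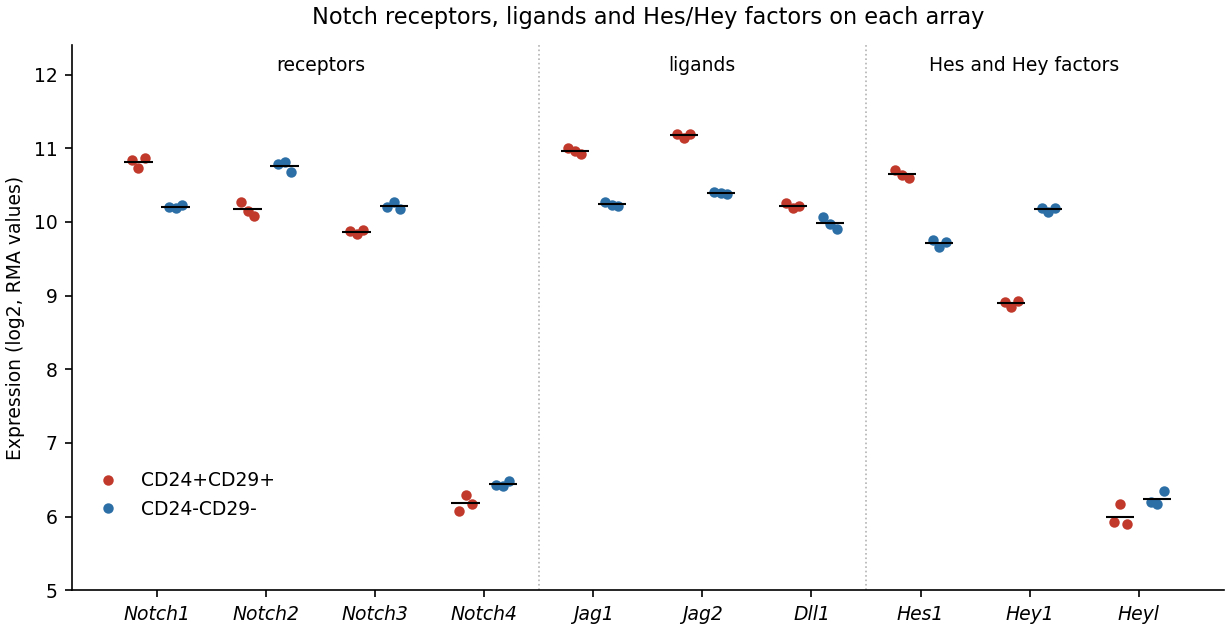
Expression (log2 RMA value) of the 10 Notch genes on each array, grouped by role. Points are single arrays, CD24+CD29+ left and CD24-CD29- right within each gene, and bars are group means (n = 3). The groups do not overlap for any gene on the deposited scale, Notch4 and Heyl lie near 6, and Hey1 shows the widest gap, with means of 8.89 and 10.17. Under poly-A scaling Notch2, Notch3, Notch4 and Heyl are higher in CD24+CD29+ cells.

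The promoters of the receptor and ligand genes that moved most are shown because Notch1, Jag1 and Jag2 were higher together while Notch2 was lower. They are RefSeq sequences of the mouse assembly GRCm38.p6, from 250 bases before to 50 bases after a gene's start, 5′ to 3′ on the gene's strand. Capitals mark the N box, CACNAG on either strand, a site that Hes repressors bind.
Notch1, chr2:26503773-26504072, minus strand: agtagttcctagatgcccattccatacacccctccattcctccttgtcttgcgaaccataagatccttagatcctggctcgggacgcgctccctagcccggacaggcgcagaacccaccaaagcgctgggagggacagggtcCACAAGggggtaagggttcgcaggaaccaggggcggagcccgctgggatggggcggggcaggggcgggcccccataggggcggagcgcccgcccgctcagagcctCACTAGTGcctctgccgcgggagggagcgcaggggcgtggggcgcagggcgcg
Jag1, chr2:137116471-137116770, minus strand: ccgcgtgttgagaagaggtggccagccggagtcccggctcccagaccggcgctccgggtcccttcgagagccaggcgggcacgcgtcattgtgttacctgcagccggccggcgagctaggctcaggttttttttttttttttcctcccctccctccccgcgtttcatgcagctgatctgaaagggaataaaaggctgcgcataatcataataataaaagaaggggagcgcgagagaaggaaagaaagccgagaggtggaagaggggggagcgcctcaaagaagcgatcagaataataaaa
Jag2, chr12:112929446-112929745, minus strand: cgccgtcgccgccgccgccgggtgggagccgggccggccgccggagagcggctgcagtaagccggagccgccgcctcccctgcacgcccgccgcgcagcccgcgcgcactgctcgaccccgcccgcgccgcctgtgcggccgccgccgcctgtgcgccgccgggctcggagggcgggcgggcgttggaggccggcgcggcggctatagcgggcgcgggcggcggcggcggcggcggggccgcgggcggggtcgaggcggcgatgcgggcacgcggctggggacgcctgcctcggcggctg
Notch2, chr3:98013288-98013587, plus strand: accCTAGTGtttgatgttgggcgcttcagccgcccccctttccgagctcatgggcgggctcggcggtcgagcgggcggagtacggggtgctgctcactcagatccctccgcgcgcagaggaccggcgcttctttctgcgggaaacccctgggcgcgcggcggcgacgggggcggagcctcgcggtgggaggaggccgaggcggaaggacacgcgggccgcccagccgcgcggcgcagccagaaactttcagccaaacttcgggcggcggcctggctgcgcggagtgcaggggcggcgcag

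The Notch1 window holds 3 N boxes, the last 2 of which overlap on opposite strands, and the Notch2 window holds 1. The Jag1 and Jag2 windows hold none. Of all 32851 promoter windows, 42.5% hold at least 1 N box, and of the 8 windows found for 7 of the 10 genes, 4 do, those of Notch1, Notch2, Notch3 and Dll1. No window was at hand for Hes1, Hey1 or Heyl, so only promoters of receptor and ligand genes were searched. TGGGAA, the core of the site that Rbpj binds, is in none of the 8 windows on either strand, against 25.6% of all windows. CACGTG, the E box that Hey factors bind, is in none of the 8 either, against 7.2% of all. These are matches of letters in a short window and were not set against the expression values by a test.

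The receptors did not move as a group. Notch1 was higher in CD24+CD29+ cells, while Notch2 was lower relative to the other genes and the probe sets of Notch3 disagreed. Notch4 was called lower at a dim level. Notch1, the receptor best known from T-cell leukaemia, stood at 10.84, 10.73 and 10.87 on the CD24+CD29+ arrays, against 10.21, 10.18 and 10.22 on the CD24-CD29- arrays. Its lowest CD24+CD29+ array lay well above its highest CD24-CD29- array. The difference was 1.53-fold (log2 0.61, SE 0.05, adjusted p = 2.4e-05). A second Notch1 probe set, with a mean of 9.39, was higher by 0.46 (95% interval 0.34 to 0.58).

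Notch2, a receptor with the same overall build as Notch1, went the other way. It stood at 10.27, 10.15 and 10.09 on CD24+CD29+ arrays, against 10.79, 10.81 and 10.68 on CD24-CD29- arrays. All 3 CD24+CD29+ arrays were below all 3 CD24-CD29- arrays. The difference was -0.59 on the log2 scale (SE 0.06, adjusted p = 9.1e-05). A dimmer probe set of the gene, with a mean of 6.23, was also lower, by -0.52 (95% interval -0.72 to -0.33). Scaled to the poly-A controls, Notch2 was at 0.63 and Notch1 at 1.83.

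Notch3, a receptor known from the smooth muscle of small arteries and also made by mammary epithelium, was read by probe sets that disagreed. The bright one stood at 9.88, 9.84 and 9.89 on CD24+CD29+ arrays, against 10.20, 10.27 and 10.18 on CD24-CD29- arrays, a difference of -0.35 (SE 0.04, adjusted p = 0.00026), or 0.87 when scaled to the poly-A controls. The dim one averaged 6.88 ± 0.11 in CD24+CD29+ cells and 6.55 ± 0.09 in CD24-CD29- cells (SD, n = 3 each), higher by 0.33 (adjusted p = 0.0042 over all probe sets). Neither had overlapping groups, and the mean of both gave -0.01, which did not pass. The bright probe set ends in _s_at, the array maker's mark for probes that can match more than a single transcript. The direction of Notch3 RNA is thus not settled by these arrays.

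Notch4, a receptor best known from endothelium, was dim. It stood at 6.07, 6.29 and 6.17 on CD24+CD29+ arrays, against 6.43, 6.42 and 6.49 on CD24-CD29- arrays (difference -0.27, SE 0.06, adjusted p = 0.0055), or 0.95 when scaled to the poly-A controls. Its other probe sets, with means of 5.05 and 4.74, lay below the lower quartile of the arrays and differed by -0.14 (adjusted p = 0.11) and -0.41 (adjusted p = 0.00089). Lower calls were common at that level: of the 8813 genes with a mean under 7, 63.2% passed, and 50% were called lower and 13.2% higher, with a median of -0.18. The endothelial markers were also dim, 9 of 11 with a mean under 7, and 4 of the 11 were called higher and 1 lower. The log2 of their summed level was 9.57 to 9.61 on CD24+CD29+ arrays and 9.20 to 9.24 on CD24-CD29- arrays. Flt1, the brightest of them, weighs most in this sum, at 7.85 in CD24+CD29+ cells and 6.78 in CD24-CD29- cells. Esam, Cdh5 and Vwf were the others called higher, and Tek was called lower. Pecam1 was at 4.87 and 5.00 and Tie1 at 4.33 and 4.34, below the lower quartile in both groups, and neither passed.

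All 3 ligands were higher in CD24+CD29+ cells. Jag1, a Jagged ligand that basal mammary cells are known to make, stood at 11.00, 10.96 and 10.92 on CD24+CD29+ arrays, against 10.27, 10.23 and 10.22 on CD24-CD29- arrays. The gap between the groups was many times the spread within either. The difference was 1.65-fold (log2 0.72, SE 0.04, adjusted p = 5.4e-06). A second probe set with a mean of 8.85 gave 1.13 (95% interval 1.00 to 1.26). Another one, at 5.52 in CD24+CD29+ cells and 5.72 in CD24-CD29- cells, did not pass (difference -0.20, adjusted p = 0.054) and its groups overlapped.

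Jag2, the other Jagged ligand, stood at 11.19, 11.14 and 11.19 on CD24+CD29+ arrays, against 10.41, 10.40 and 10.38 on CD24-CD29- arrays. Every CD24+CD29+ array lay above every CD24-CD29- array, by far more than arrays of a group differed. The difference was 1.72-fold (log2 0.78, SE 0.04, adjusted p = 2.5e-06), rank 1145 of 18193 genes from the most positive. Its other probe set stood at 9.64, 9.59 and 9.55 in CD24+CD29+ cells, against 8.00, 7.93 and 8.06 in CD24-CD29- cells. That is a 3.01-fold difference (log2 1.59, 95% interval 1.46 to 1.72), the largest of all 20 probe sets, and its interval does not meet that of the brighter probe set, 0.67 to 0.89. Which size holds for Jag2 RNA cannot be read from the arrays alone, while the direction was shared.

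Dll1, a Delta-like ligand known from basal cells and stem cells of the mouse mammary gland, differed least of the 3. It stood at 10.26, 10.18 and 10.22 on CD24+CD29+ arrays, against 10.07, 9.97 and 9.90 on CD24-CD29- arrays. The groups did not overlap, but the gap between them was narrower than the range of the CD24-CD29- arrays. The difference was 1.18-fold (log2 0.24, SE 0.05, adjusted p = 0.0049), and it was 0.08 and no longer passed after quantile normalization (adjusted p = 0.15) or cyclic loess (adjusted p = 0.15). Genes of this level tended upward: of the 5202 genes with a mean of at least 9, 79.1% passed, and 54.1% were called higher and 25.1% lower, with a median of 0.16. Of the 8 Notch genes at that level, 5 were higher and 3 lower. Quantile normalization moved all 8 down, not Dll1 alone. Notch1 was then at 0.49, Jag1 at 0.60, Jag2 at 0.67 and Hes1 at 0.79. Notch2 was at -0.71, Notch3 at -0.50 and Hey1 at -1.45.

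Markers of other lineages moved on the same arrays as the ligands. Of 9 basal mammary markers, 7 were called higher in CD24+CD29+ cells and 1 lower, among them Krt14, a basal keratin, by 0.99, and Trp63, a transcription factor that maintains basal cells, by 0.80. The log2 of their summed level was 15.07 to 15.13 on CD24+CD29+ arrays and 14.39 to 14.42 on CD24-CD29- arrays. Of 11 luminal markers 3 were called higher and 6 lower, with summed levels of 15.53 to 15.57 and 15.71 to 15.72. Fibroblast markers were called higher in 8 of 8 cases, with summed levels of 13.34 to 13.39 in CD24+CD29+ cells and 12.22 in CD24-CD29- cells, and pericyte and smooth muscle markers in 8 of 10, with 1 lower, at 11.58 to 11.63 and 11.21 to 11.25. Of 9 leukocyte markers none was called higher and 5 were called lower, at 8.93 to 9.05 and 9.41 to 9.43, and the defining marker Ptprc was at 4.85 and 4.94, below the lower quartile. Of all genes, 34.4% were called higher and 36.5% lower. Acta2 and Myh11 stand in both the basal list and the pericyte and smooth muscle list, so those lists are not separate. The part of these cell types in the differences of the Notch genes was not tested.

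**Figure D2:**
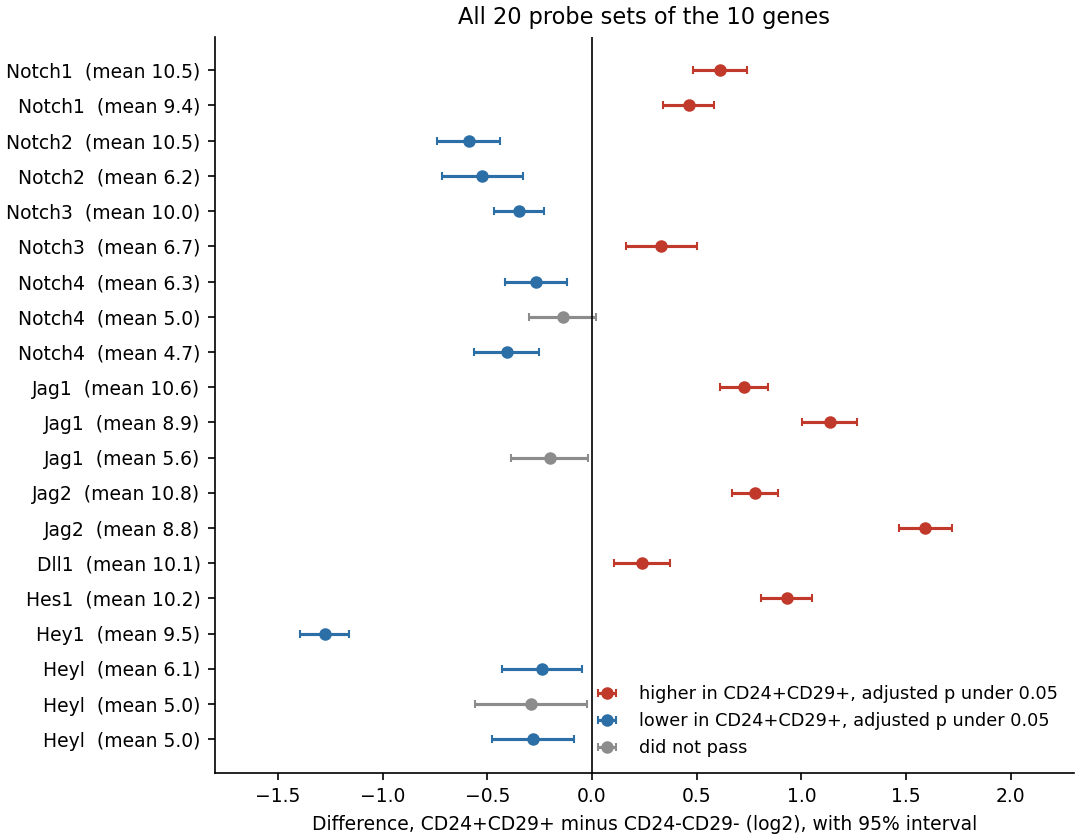
Difference in expression (log2, CD24+CD29+ minus CD24-CD29-, as deposited) of all 20 probe sets of the 10 Notch genes, with 95% intervals of limma's fit and each probe set's mean level in brackets. The pair of Jag2 probe sets lie at 0.78 and 1.59, the pair of Notch3 probe sets lie on opposite sides of 0, and Hey1 lies at -1.28. Poly-A scaling raises every value by 1.22 and so turns all negative ones but Hey1 positive.

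Seen over probe sets, 17 of 20 passed in a fit of all 45037 non-control probe sets, 9 higher and 8 lower, where 63.9% of all passed, 29.2% higher and 34.8% lower. The arrays of the groups did not overlap for 17 of 20, against 68.2% of all probe sets. Of the 9 bright ones, with a mean of at least 9, 6 were higher and 3 lower. Of the 9 dim ones, with a mean under 7, 1 was higher, 5 were lower and 3 did not pass. The shares by level are known here for genes rather than probe sets. Of all genes with a mean of at least 9, 54.1% were called higher and 25.1% lower. Of those with a mean under 7, 13.2% were called higher and 50% lower. Probe sets of a gene were read on the same arrays and are not replicates of the comparison.

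Hes1 and Hey1, the best known transcriptional targets of the pathway, moved in opposite directions. Hes1, a repressor of lineage genes, stood at 10.70, 10.63 and 10.60 on CD24+CD29+ arrays, against 9.76, 9.66 and 9.72 on CD24-CD29- arrays. Its groups were separated by a gap far wider than either group's spread. The difference was 1.90-fold (log2 0.93, SE 0.05, adjusted p = 2.5e-06), rank 692 of 18193 from the most positive. Hey1, a related repressor, stood at 8.92, 8.84 and 8.93 on CD24+CD29+ arrays, against 10.19, 10.13 and 10.19 on CD24-CD29- arrays. All 3 CD24+CD29+ arrays were lower by more than 1 on the log2 scale. The difference was 2.42-fold (log2 -1.28, SE 0.04, adjusted p = 5.7e-07), the widest of the 10 genes and rank 160 of 18193 from the most negative. Hes1 and Hey1 were each read by a single probe set, so no second reading was at hand. Hey1 stayed negative in all 15 alternatives, but with poly-A scaling it was at -0.06 and no longer passed (adjusted p = 0.34), while Hes1 was at 2.15.

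Heyl, another Hey factor, was dim and close to the threshold. It stood at 5.92, 6.16 and 5.90 on CD24+CD29+ arrays, against 6.19, 6.17 and 6.34 on CD24-CD29- arrays. The highest CD24+CD29+ array all but touched the lowest CD24-CD29- array. The difference was -0.24 (SE 0.08, adjusted p = 0.033), or 0.98 when scaled to the poly-A controls. It no longer passed after quantile normalization, cyclic loess or median centring (adjusted p = 0.12, 0.15 and 0.072). It also no longer passed without CD24+CD29+ replicate 1 or 3 or without CD24-CD29- replicate 1 or 3 (adjusted p = 0.099, 0.11, 0.051 and 0.097). Its other probe sets, both at a mean near 5, gave -0.29 (adjusted p = 0.054) and -0.28 (adjusted p = 0.018).

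**Figure D3:**
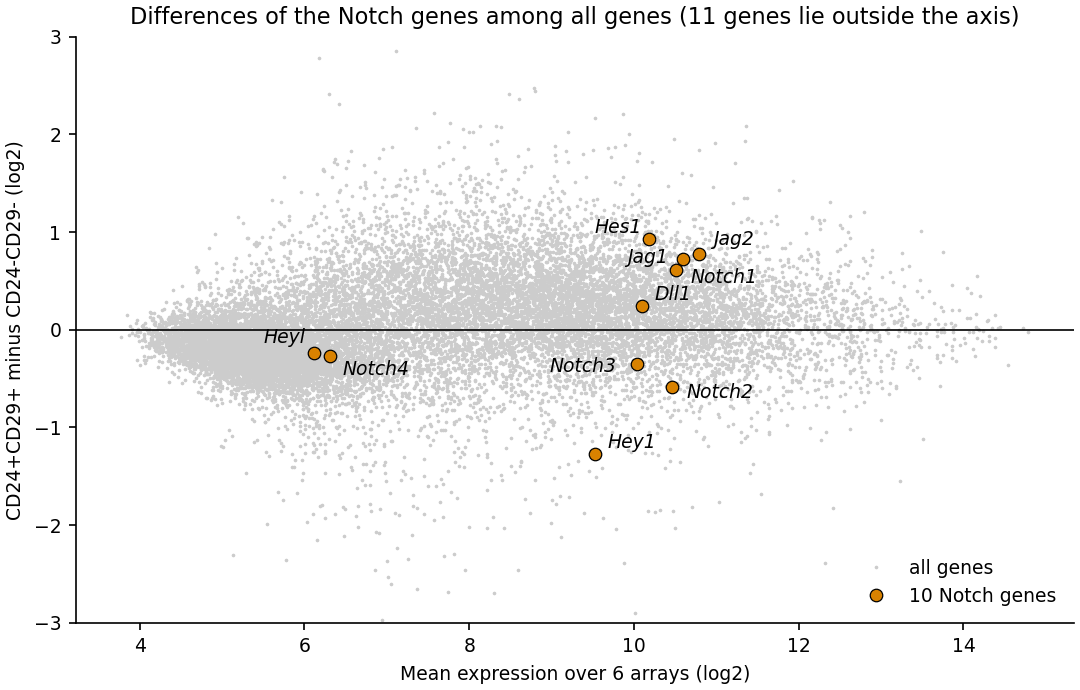
Difference in expression (log2, CD24+CD29+ minus CD24-CD29-, as deposited) against mean expression over the 6 arrays (log2) for all 18193 genes (grey) and the 10 Notch genes (orange). Hes1, Jag1, Jag2 and Notch1 lie above 0.6 at means over 10, Hey1 lies at -1.28, and Notch4 and Heyl lie inside the dense cloud of dim genes. Poly-A scaling places all genes 1.22 higher, which turns Notch2, Notch3, Notch4 and Heyl positive.

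The genes with profiles most like those of the strongest movers were found by the root mean square distance between centred log2 values over the 6 arrays. For Hes1, with the largest rise, they were Emsy, Thap12 and Mcam, at distances of 0.02, with differences of 0.93, 0.90 and 0.91. For Hey1, with the largest fall, they were Echdc3, Spire1 and Sertad1, at distances of 0.04, with differences of -1.28, -1.30 and -1.34. With 2 groups of 3 arrays the measure rests almost wholly on the size of the group difference.

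The other genes of the pathway were taken from lists by role, and of 65 listed genes 61 were measured. Of these, 21 were called higher and 23 lower (72.1%, close to the 70.8% of all genes), with a median of -0.06. Among the other ligands Dll3 and Dll4, the remaining Delta-like ligands, did not pass, at 5.77 and 6.19 in CD24+CD29+ cells and at 5.94 and 6.28 in CD24-CD29- cells. The Delta-like membrane protein gene Dlk2 was higher by 1.61-fold (9.79 ± 0.05 in CD24+CD29+ cells and 9.11 ± 0.05 in CD24-CD29- cells, SD, n = 3 each), and Dner, which encodes a neuronal membrane protein with EGF repeats, by 1.52-fold at a dim level. A second probe set gave 0.64 for Dlk2 and 0.51 for Dner. Dlk1, at 5.31 in CD24+CD29+ cells and 5.57 in CD24-CD29- cells, was called lower. In all, 2 of these 5 genes were called higher and 1 lower (60%, against 70.8% of all genes), and none of the calls was for Dll3 or Dll4.

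Of 8 measured genes of receptor processing, 1 was called higher and 3 lower (50%, against 70.8% of all genes). Adam17, a sheddase that also frees TNF, stood at 10.54, 10.52 and 10.55 on CD24+CD29+ arrays, against 9.64, 9.44 and 9.54 on CD24-CD29- arrays, a 1.99-fold difference (log2 0.99, SE 0.06, adjusted p = 4.1e-06). Its 2 other probe sets were higher too, by 0.22 and 0.49. Adam10, the main sheddase for ligand-bound Notch, averaged 10.33 ± 0.05 in CD24+CD29+ cells and 10.31 ± 0.02 in CD24-CD29- cells (SD, n = 3 each) and did not pass (difference 0.02, adjusted p = 0.72). After quantile normalization it was at -0.13 and passed (adjusted p = 0.028). Its 3 other probe sets, all dim, lay between -0.15 and 0.21 and did not pass. Aph1a, a subunit of gamma-secretase, stood at 9.48, 9.41 and 9.45 on CD24+CD29+ arrays, against 10.30, 10.36 and 10.41 on CD24-CD29- arrays, 1.89-fold lower (log2 -0.92, SE 0.05, adjusted p = 2.4e-06). Its other probe sets gave -0.66 and -0.89, and the gamma-secretase genes Psenen and Ncstn were lower by smaller amounts, at -0.17 and -0.16. With poly-A scaling Aph1a was at 0.30.

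Of 5 genes of the enzymes that add sugars to Notch receptors, 2 were called higher, 1 lower, and 2 did not pass. That is 60% called, against 70.8% of all genes. Pofut1, which adds the O-fucose that receptors need, was higher by 0.34, and Lfng, a Fringe enzyme that extends that fucose, by 0.16. The Fringe gene Mfng, at 5.29 ± 0.11 in CD24+CD29+ cells and 5.81 ± 0.08 in CD24-CD29- cells (SD, n = 3 each), was lower by -0.52 at a level near the lower quartile of the arrays. With poly-A scaling it was at 0.70.

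Of 13 genes of ligand and receptor traffic and turnover, 3 were called higher and 4 lower (53.8%, against 70.8% of all genes). Mib2, a ubiquitin ligase for Notch ligands, was higher by 1.48-fold, and its relative Mib1 was lower by -0.29. Fbxw7, which marks the intracellular part of Notch for degradation, was 1.65-fold lower on its brighter probe set (9.26 ± 0.08 in CD24+CD29+ cells and 9.98 ± 0.03 in CD24-CD29- cells, SD, n = 3 each), while the other probe set was at -0.03 and did not pass. Dtx2, a Deltex ubiquitin ligase, was 1.88-fold higher on the probe set that represents it, but the brighter one, ending in _x_at, gave 0.13 and did not pass. Numb, which encodes an inhibitor of Notch, was higher by 0.27.

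Of 15 measured genes of the nuclear complex, 8 were called higher and 5 lower (86.7%, against 70.8% of all genes), with a median of 0.25. The list was bright, with a median level of 9.80. Genes with a mean of at least 9 were called higher in 54.1% and lower in 25.1% of cases, with a median of 0.16. Rbpj, the DNA-binding partner of all 4 receptors, stood at 11.37, 11.32 and 11.39 on CD24+CD29+ arrays, against 11.12, 11.11 and 11.10 on CD24-CD29- arrays, a 1.19-fold difference (log2 0.25, SE 0.04, adjusted p = 0.00094) that its other probe sets shared, at 0.28 and 0.35. Maml1, a Mastermind coactivator, was lower by -0.30 (SE 0.05, adjusted p = 0.0016), or at 0.92 with poly-A scaling. Its other probe sets gave -0.26, which passed, and -0.01, which did not. The acetyltransferase genes Kat2a and Kat2b differed in sign on their brightest probe sets, at 0.89 and -0.53. The other probe sets of Kat2a gave 1.88 and, not passing, 0.01, and those of Kat2b gave -0.20 and, not passing, 0.00, so that the mean for Kat2b was -0.25. Genes of corepressors were among those called higher. Spen, which acts with Rbpj, was higher by 1.75-fold, Tle1, a Groucho protein that Hes factors recruit, by 1.70-fold, and Ctbp2 by 1.61-fold. A second probe set gave 0.16 for Tle1, against 0.76 on the brighter one, and the mean of both was 0.46. For Ctbp2 the second probe set gave 0.38, against 0.68 on the brighter one. The other Groucho genes Tle2, Tle3 and Tle4 were lower, at -0.45, -0.30 and -0.39.

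Of 15 other Hes and Hey factors and targets, 5 were called higher and 9 lower (93.3%, against 70.8% of all genes). Nrarp, a target that dampens Notch signalling in turn, stood at 9.04, 9.06 and 9.10 on CD24+CD29+ arrays, against 8.12, 8.03 and 8.05 on CD24-CD29- arrays. It was higher by 2.00-fold (log2 1.00, SE 0.04, adjusted p = 1.4e-06) on this probe set and by 0.18 on its dimmer one. Nfkb2, which encodes a subunit of NF-kappa-B, was higher by 1.77-fold (log2 0.82), while its other probe set was at -0.11 and did not pass, and the mean of both was 0.36. The growth-related genes Myc and Ccnd1, also listed as targets, were at 0.37 and -0.19. Id2, an inhibitor of bHLH factors, stood at 10.41, 10.34 and 10.17 on CD24+CD29+ arrays, against 11.45, 11.39 and 11.35 on CD24-CD29- arrays, 2.13-fold lower (log2 -1.09, SE 0.07, adjusted p = 6.3e-06). Its other probe sets gave -0.33, which passed, and 0.12, which did not. With poly-A scaling Id2 was at 0.13. The cell cycle inhibitor gene Cdkn1a was 1.60-fold lower on its bright probe set, but higher by 0.49 on the other, and their mean, -0.10, did not pass. The remaining Hes genes and Hey2 all had means under 7, where 50% of all genes were called lower and 13.2% higher. Of those 6, Hes2, Hes3, Hes5, Hes7 and Hey2 were called lower, by -0.20 to -0.42, and Hes6 higher by 0.24.

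**Figure D4:**
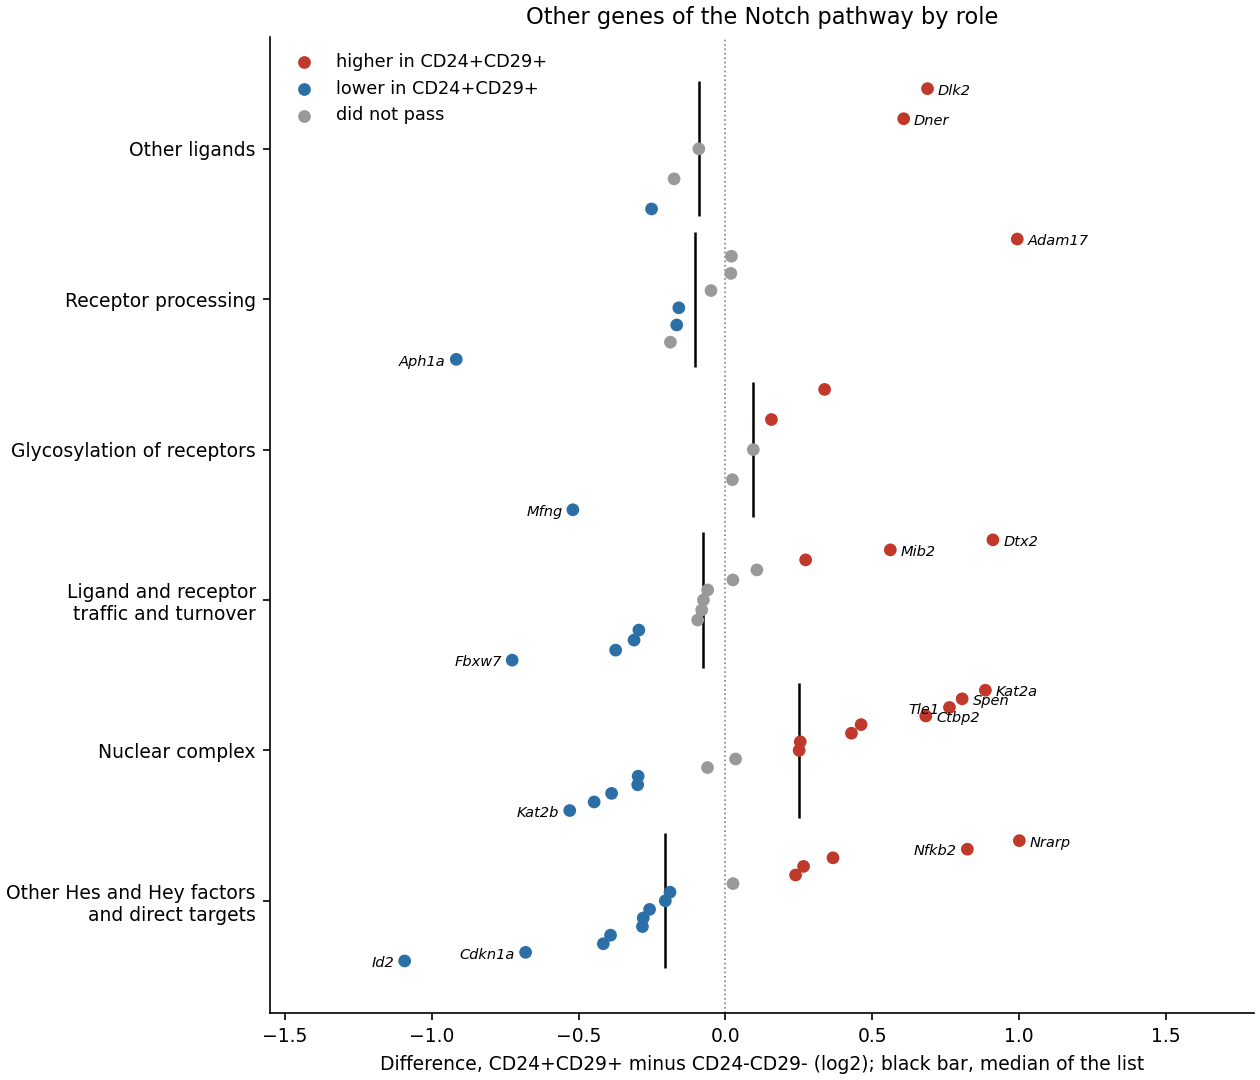
Difference in expression (log2, CD24+CD29+ minus CD24-CD29-, as deposited) of 61 other Notch pathway genes by role. Points are genes, red called higher, blue called lower and grey not passing, black bars are list medians, and genes past 0.5 in size are named. Adam17, Nrarp and Dtx2 lie farthest to the right and Id2 and Aph1a farthest to the left, and poly-A scaling adds 1.22 to every value, which turns all the named blue genes positive.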

How the data were processed

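The data are 6 Affymetrix Mouse430_2 arrays, 3 per sorted group, with groups taken from the sample labels. Per the submitters' processing notes, the authors made the deposited log2 values with RMA, which corrects background, normalizes between arrays and summarises each probe set, and with Partek. No version, setting or order of steps is stated. The number of arrays limits the precision.

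Of 45101 probe sets, 64 were controls, 34945 had a single gene symbol in the platform's annotation, 932 several and 9160 none. The 10 Notch genes matched RefSeq by Entrez identifier with no symbol changed. Each gene took the value of whichever single-symbol probe set was brightest on average, passing over _x_at ones where it had another. The comparison was fitted by lmFit and eBayes of limma 3.58.1 (R 4.3.3), with no block or trend, across all 18193 genes, and separately across all non-control probe sets, with Benjamini-Hochberg adjustment and a threshold of 0.05. Standard errors and intervals are those of the fit. The fit was tested on simulated data.

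The 10 genes and the lists of pathway genes and cell type markers were chosen with earlier results of these data known. All 10 genes are named. Of the pathway genes, the rule named those past the threshold with a difference of at least 0.5, up to 25, and Rbpj, Maml1 and Adam10. Some listed items are not reported here. The rule also named the sort genes and the 3 nearest profiles of the gene that rose most and of the gene that fell most. Others in the text were named after their values were seen. The same normalization, probe set, filter, trend, block and left-out array alternatives were run for each result. A summed marker level is the log2 of the sum of linear values.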

Additional observations from a re-analysis of the deposited data

How the results depend on the processing

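The poly-A scaling changed directions, and the cause of the lower control signal was not tested. Under it 17934 genes were called higher and 132 lower, 9 Notch genes higher and 0 lower, 19 of their probe sets higher and 0 lower, and 60 other pathway genes higher and 0 lower. Notch2 was then at 0.63, Notch3 at 0.87, Notch4 at 0.95 and Heyl at 0.98. The further probe sets were at 0.70 for Notch2, 1.08 and 0.81 for Notch4, 0.93 and 0.94 for Heyl and 1.02 for the dim one of Jag1. Of the named pathway genes, Aph1a was at 0.30, Cdkn1a at 0.54, Fbxw7 at 0.49, Id2 at 0.13, Kat2b at 0.69, Maml1 at 0.92 and Mfng at 0.70. Adam10 was at -0.13 after quantile normalization and at -0.13 after cyclic loess. Without the dimmest 40% of genes, which removes Notch4 and Heyl, 3 Notch genes and 2966 of all genes were called lower. Notch1, Jag1, Jag2 and Hes1 stayed higher and past the threshold under all 15 alternatives, and over the arrays left out in turn the 5 higher calls held, with 4 to 5 lower. With the replicate number as a block (replicate block), 5 Notch genes were higher and 4 lower, 9 probe sets higher and 10 lower, 21 pathway genes higher and 24 lower, and 6200 of all genes higher and 6667 lower. Heyl lost its call there (adjusted p = 0.054). Whether the numbers pair the arrays is not known. Deviations from the group means correlated at 0.22, -0.05 and 0.04 for equal numbers. CD24+CD29+ replicate 2 correlated best with CD24-CD29- replicate 3, at 0.21. Deviations from a mean of 3 arrays are tied together, so these values cannot settle a pairing. With 3 arrays a group and no detection calls, it cannot be said which dim values, such as those of Notch4 and Heyl, lie above background.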
